A study of Mus musculus with 24 samples.

Results

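The cytosolic ribosomal proteins were followed across 5 leukocyte populations of mice on 2 genetic backgrounds. Members were taken by gene symbol: probe sets annotated to 1 gene whose symbol is Rpl or Rps followed by a digit, or Rpsa, Rplp0, Rplp1 or Rplp2, without Rps6k kinases, pseudogenes and predicted genes. This gave 35 of the 8251 genes that a probe set measured alone, 17 named for the large subunit and 18 for the small subunit. They were read by 49 probe sets, and the probe set with the highest mean log2 intensity stood for its gene. Another 39 probe sets for ribosomal proteins were annotated to further genes as well and were left out. They cover 34 ribosomal protein genes, of which 33 are not members. Rplp1, Rplp2, Rps6, Rps26, Rpl3, Rpl5 and Rpl11 therefore have no value here.

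The study compared islet infiltrates that its labels call aggressive or benign. The BDC2.5 transgene encodes a T cell receptor that recognises the islets of the pancreas, and mice with it develop the aggressive form on C57Bl/6 with the H2g7 haplotype (B6g7) and the benign form on NOD. Total infiltrate was sorted from the pancreas as viable CD45+ cells, with 3 arrays per background. The B6g7 mice were 25, 28 and 24 days old (arrays 1 to 3) and the NOD mice 25 days. BDC2.5 T cells, gated as CD4+ and high for the clonotype, came from the pancreas and from its draining lymph nodes. Each site had 2 arrays of B6g7 (25 and 22 days) and 3 of NOD (24, 24 and 25 days in the pancreas, 24, 22 and 25 days in the lymph node). Splenic NK cells, sorted on Asialo GM1 and CD45, had 2 arrays per background. The B6g7 NK mice are labelled as without a transgene and were 6 and 3 weeks old. BDC2.5 is stated for array 2 of the NOD NK cells only. Total CD45+ splenic leukocytes, 2 arrays per background, served as reference. No transgene is labelled for the spleens. RNA had 1 round of amplification for the spleens and 2 rounds for every other group. Labelled ages differ among the arrays of B6g7 infiltrates, B6g7 T cells of each site, NOD lymph node T cells and B6g7 NK cells. Those arrays stand for different mice, as does array 3 of the NOD pancreatic T cells beside arrays 1 and 2. For all other arrays this is not stated. The p-values thus weigh differences against a shared spread among arrays that may in part be technical.

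Each cytosolic ribosome joins a small subunit, which reads the messenger RNA, to a large subunit, which forms the peptide bond. Messenger RNAs for ribosomal proteins are among the most abundant of a lymphocyte, and many start with a run of pyrimidines, the 5′ terminal oligopyrimidine (TOP) element, through which mTOR signalling and Larp1 set their translation together. Resting lymphocytes make few ribosomes and build many more after activation.

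RefSeq promoter sequences (GRCm38.p6) were found for 28 of the 35 genes, all but Rpl32, Rpl7, Rpl8, Rps14, Rps20, Rps29 and Rps4l. A run of 8 or more C or T letters on the transcribed strand, within 30 bases of the annotated start, was present for 14 of the 28 (50%), against 25.8% of the 27025 genes of the table. On the other strand 4 of the 28 (14.3%) had such a run, against 28.7% of all genes. The letters TTCCGG, searched on both strands over 300 bases, were found for 17 of the 28 (60.7%) and 16.7% of all genes, and TATAAA for 4 of the 28 (14.3%) and 15.7%. The 60 bases around the start of 6 genes are shown. Each was picked for having such a run as well as a probe set that differed between populations below. Genes that differed but had no run, such as Rpl6, Rps3, Rps4x, Rps19 and Rps3a1, are not shown. Nor are Rps7 and Rpl19, with runs of 8 and 11 letters. The longest run of C and T is in capitals.

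Rpl7a: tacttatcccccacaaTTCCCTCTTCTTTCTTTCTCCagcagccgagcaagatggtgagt
Rps18: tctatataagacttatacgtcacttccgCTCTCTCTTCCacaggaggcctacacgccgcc
Rps10: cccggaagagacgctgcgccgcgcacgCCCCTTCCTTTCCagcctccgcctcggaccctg
Rps27: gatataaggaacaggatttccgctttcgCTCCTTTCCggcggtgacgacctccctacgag
Rpl38: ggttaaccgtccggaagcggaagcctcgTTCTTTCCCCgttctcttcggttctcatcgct
Rpl10a: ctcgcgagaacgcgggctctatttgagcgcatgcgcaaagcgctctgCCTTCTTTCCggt

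These windows lie at chr2:26910777-26910836 on the plus strand for Rpl7a, chr17:33955636-33955695 on the minus strand for Rps18, chr17:27635215-27635274 on the minus strand for Rps10, chr3:90213619-90213678 on the minus strand for Rps27, chr11:114668550-114668609 on the plus strand for Rpl38 and chr17:28328535-28328594 on the plus strand for Rpl10a. The run of Rpl7a is 21 letters long, and those of the other 5 are 11, 13, 9, 10 and 10. A run is a match of letters and not a mapped transcription start.

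Values are log2 of the deposited probe set intensity. The level of a probe set depends on its probes, so levels are compared between arrays and not between genes. Means over the 24 arrays ran from 3.43 (Rps15) to 12.72 (Rpl41), and 17 of the 35 members had a mean above 10. Another 7 were among the dimmest 40% of all probe sets: Rpl32, Rpl39, Rpl39l, Rps14, Rps15, Rps20 and Rps4l. Fabp1, a liver transcript, read up to 4.36 in 18 arrays without liver transcripts. The 10 group means of 3 members were all at or under that level, and 3 more had some group means there, a level at which expression cannot be told from its absence.

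Control probe sets differed between the populations before any comparison is made. The difference between the 3′ and 5′ Gapdh controls, which grows as RNA or its amplified copy is shortened from the 5′ end, was 0.21 to 0.37 in the spleen arrays and 2.56 to 3.65 in the infiltrates. It was 2.78 to 4.87 in pancreatic T cells, 2.83 to 3.84 in lymph node T cells and 4.32 to 5.27 in NK cells. Pancreatic NOD T cell array 2 had the 4.87, and also the lowest Rps3a1 of all arrays (8.51). Liver transcripts were read in 6 arrays: B6g7 infiltrates 1 and 2, and array 1 of each T cell group. T cell markers (7 of 10 measured) summed to 2572 to 3874 linear units in the T cell arrays, 872 to 2075 in NK cells and up to 2637 in spleens. NK markers (8 of 10 measured) summed to 1689 to 3588 in NK cells, up to 1719 in infiltrates and 237 to 364 in T cells. The median of Ncr1 in T cells was at or under the 4.36 of Fabp1 above. The NK arrays thus carried the markers of their label together with those of other leukocytes.

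The mean of the 35 members was highest in spleen and lowest in NK cells. It was 8.88 to 8.91 in the 4 spleen arrays, 8.62 to 8.96 in 5 lymph node T cell arrays and 8.51 to 8.93 in 5 pancreatic T cell arrays. It was 8.30 to 8.59 in 6 infiltrates and 8.19 to 8.27 in 4 NK arrays. NK cells and infiltrates did not overlap. Pancreatic T cells overlapped both infiltrates and spleens, and lymph node T cells overlapped the spleens but lay above all infiltrates. The T cells of both sites overlapped. The median of all probe sets was 5.13 to 5.29 in every array, but the upper end of the scale moved: the 99th percentile was 10.38 to 10.54 in spleen, 10.12 to 10.24 in NK cells and 10.08 to 10.42 in infiltrates. In mixed populations such as spleen and infiltrate, fewer cells of a type and less RNA per cell cannot be told apart.

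**Figure D1:**
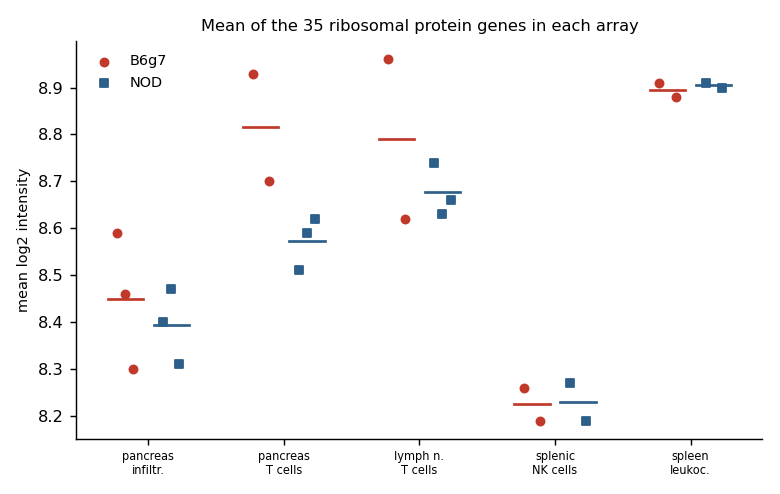
Mean log2 intensity of the 35 ribosomal protein genes (vertical axis) in each of the 24 arrays, by cell population and background (B6g7 circles, NOD squares; bars are group means). The spleen arrays lie between 8.88 and 8.91 and the NK arrays between 8.19 and 8.27.

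The members did not move as 1 block. The range of a member's 10 group means had a median of 0.91 and ran from 0.29 (Rpl39 and Rps14, both dim) to 5.45 (Rps7). It exceeded 1 for 15 members, of which 11 were lowest in an NK group and 9 highest in a spleen group. It exceeded 2 for 4 of them. Rps7, a protein of the small subunit, ranged over 5.45, Rpl10a, which forms the mobile L1 stalk of the large subunit, over 3.39, Rps3a1 of the small subunit over 2.34, and Rpl6 of the large subunit over 2.06. Rpl7a followed the members' mean most closely over the 10 groups (Pearson r = 0.98, a description in which Rpl7a is itself part of the mean). Rpl22, which T cell development in the thymus depends on, ran against it (-0.68) but varied little, with a range of 0.50. This holds for the probe set that stands for the gene. The other probe set of Rpl22, with a mean of 6.22 against 6.56, varied more. It read 5.40 to 7.31 in lymph node T cells and 5.52 to 5.88 in NK cells.

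**Figure D2:**
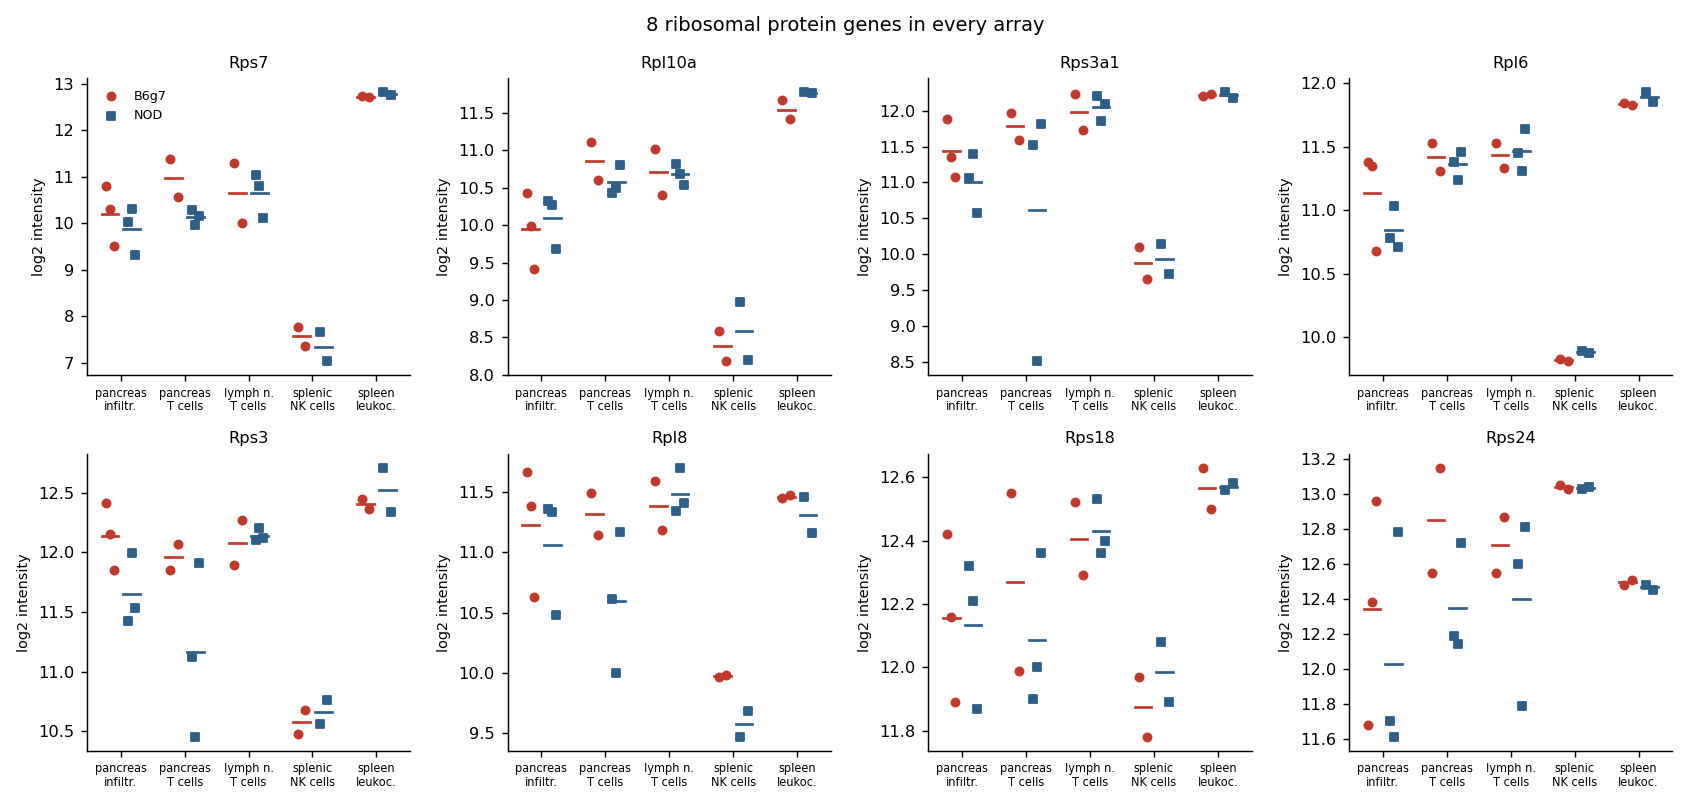
Log2 intensity of 8 members in every array by population and background (B6g7 circles, NOD squares; bars are group means; each panel has its own vertical scale). Rps7, Rpl10a, Rps3a1, Rpl6, Rps3 and Rpl8 are lowest in NK cells, apart from Rps3a1 and Rps3 in 1 pancreatic NOD T cell array, while Rps24 is at 13.03 to 13.05 there.

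NK cells against lymph node T cells gave the clearest differences among populations with the same number of amplification rounds, each taken as the mean over both backgrounds. In this comparison 11 members were lower and 1 higher in NK cells. Of all 12422 probe sets, 15.2% were called, 8.68% lower and 6.47% higher. The median difference of the 35 members was -0.32, against 0.04 over all probe sets. It was smaller under other choices: -0.21 with quantile normalization, -0.13 with the dimmest probe set of each member and -0.04 over all their 49 probe sets. The large subunit gave 5 of the 11 lower members and the small subunit 6.

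Rps7 read 7.77, 7.37 (B6g7), 7.67 and 7.03 (NOD) in the NK arrays. In lymph node T cells it read 11.04, 10.80 and 10.12 (NOD) and 11.29 in B6g7 array 1, with a mean over both B6g7 arrays of 10.64. Every NK array was below every T cell array, and the difference was -3.19 ± 0.31 (SE; limma adjusted p = 1.74e-06), a 9.12-fold lower intensity. Rps3a1 read 10.10, 9.66, 10.14 and 9.72 in NK cells, and 12.23, 11.73, 12.21, 11.86 and 12.09 in lymph node T cells. It fell by 2.11 ± 0.46 (SE; limma adjusted p = 0.00449), again without overlap.

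Rps3, which lines the channel where messenger RNA enters the ribosome, read 10.48 to 10.76 in 4 NK arrays and 11.89 to 12.27 in 5 lymph node T cell arrays. The difference was -1.49 ± 0.22 (SE; limma adjusted p = 1.58e-04). Rps4x, the X-linked copy of protein S4, differed by -1.41 ± 0.23 (SE; limma adjusted p = 3.64e-04). Its other probe sets, all dimmer (means 3.77 to 5.53), differed by -0.07 to 0.33, and none passed. Rps19, mutated in Diamond-Blackfan anaemia, read 11.09, 10.98, 10.82 and 11.04 in NK cells and 11.72 to 12.12 in lymph node T cells, a difference of -1.02 ± 0.12 (SE; limma adjusted p = 2.57e-05). Rps18 moved least of the small subunit members called lower, by -0.49 ± 0.14 (SE; limma adjusted p = 0.0285).

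In the large subunit, Rpl10a read 8.58, 8.18, 8.97 and 8.20 in NK cells and 11.02, 10.40, 10.82, 10.68 and 10.54 in lymph node T cells. The difference was -2.21 ± 0.22 (SE; limma adjusted p = 2.41e-06). Rpl8, close to the peptidyl transferase centre, differed by -1.65 ± 0.24 (SE; limma adjusted p = 1.66e-04). Rpl6 was the tightest, at 9.81 to 9.89 in the 4 NK arrays and 11.31 to 11.64 in the 5 T cell arrays, a difference of -1.60 ± 0.13 (SE; limma adjusted p = 2.93e-07). Rpl7l1, a relative of Rpl7 with a low signal, and Rpl7a were also lower (-0.80 and -0.64). Leaving out 1 of the 9 arrays ended the call of Rpl7a in 6 fits (limma adjusted p up to 0.198), Rps18 in 4 (0.121), Rps28 in 3 (0.117) and Rpl7l1 in 1 (0.0528), and none of the other 8. Rplp0, the base of the stalk that recruits elongation factors, did not pass, at -0.70 ± 0.25 (SE; limma adjusted p = 0.0766). Nor did Rpl13a (-0.62), Rpl22 (0.24), Rpsa (0.06), Rps27 (0.32), Rps29 (0.32), Rps27l (-0.42), Rpl38 (-0.02) or Rpl39l. The other probe set of Rpl22 differed by -0.76 and did not pass either (limma adjusted p = 0.0934).

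Rps28 was the 1 member called higher in NK cells, and another probe set of the same gene went the other way. The probe set that stands for Rps28 read 12.65, 12.57, 12.50 and 12.57 in NK cells and 12.54, 12.03, 11.98, 11.60 and 12.19 in lymph node T cells, which overlap. Its difference was 0.47 ± 0.13 (SE; limma adjusted p = 0.0169). A further probe set of Rps28, with a plain suffix, read 10.19, 8.89, 9.93 and 8.89 in NK cells and 12.09 to 12.86 in lymph node T cells. This is a difference of -2.90 ± 0.24 (SE; limma adjusted p = 2.93e-07), so the direction of Rps28 in NK cells depends on the probe set.

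Rpl10a has the same kind of disagreement. The plain-suffix probe set, which stands for the gene, gave the fall above. The other, with the suffix f, read 10.54, 10.60, 10.77 and 10.74 in NK cells and 10.03 to 10.58 in lymph node T cells, with a difference of 0.21 ± 0.16 (SE; limma adjusted p = 0.442).

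In Affymetrix names, the suffix f or s marks a probe set that can read several related transcripts, and r or i one chosen under relaxed rules; the plain suffix marks probes chosen as particular to 1 transcript. Of the 13 members with a plain suffix and a mean above 10, 10 were lower in NK cells than in lymph node T cells, with a median of -1.41. Of the 4 with a marked suffix and a mean above 10, none was lower and 1 was higher, with a median of 0.07. Among the 18 members with a mean of 10 or less, 1 was lower (Rpl7l1) and none higher. Of all probe sets, 8.68% were lower and 6.47% higher, and the share among probe sets of like brightness was not computed. The split by suffix was not the same in every comparison. In infiltrates against spleen, 9 of the 13 and 3 of the 4 were lower, with medians of -0.82 and -0.60. In NK cells against spleen these were 12 and 1, with medians of -1.60 and 0.03.

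**Figure D3:**
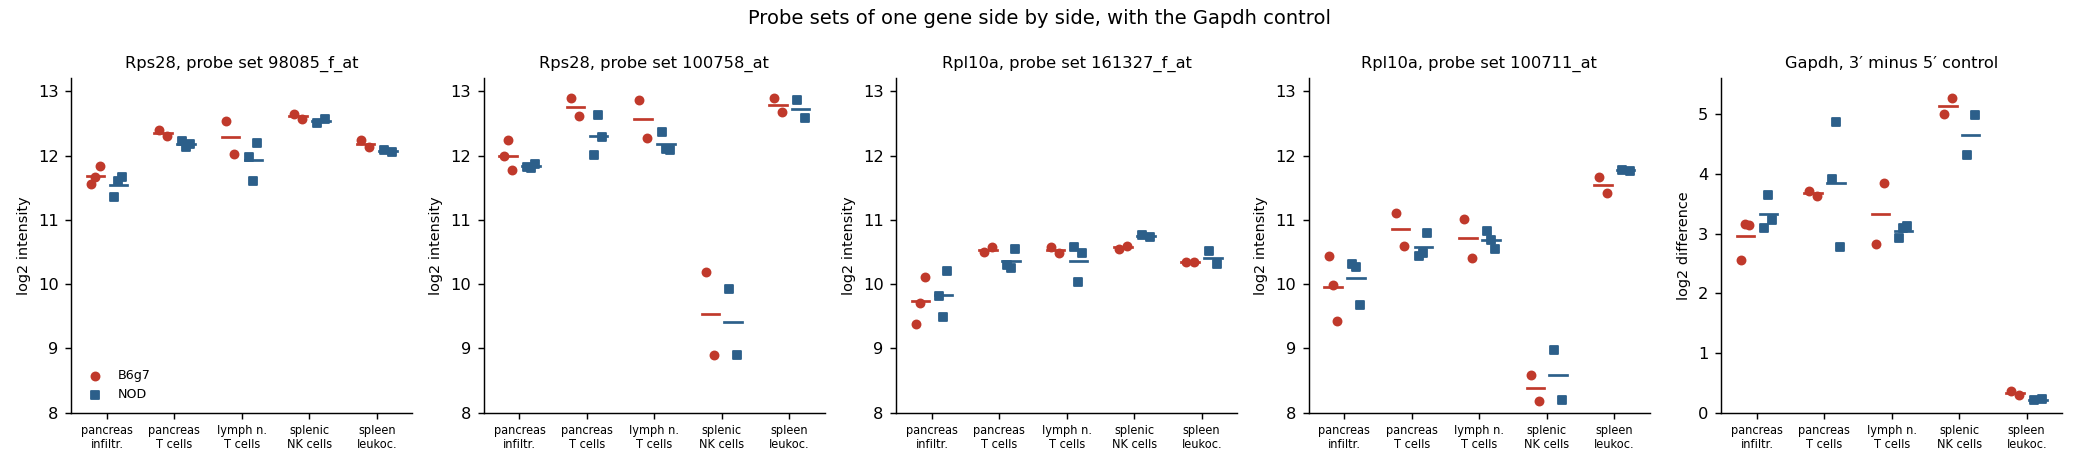
Log2 intensity in every array of an f-suffix and a plain-suffix probe set each of Rps28 and Rpl10a, with the Gapdh 3′ minus 5′ difference in the last panel (B6g7 circles, NOD squares; bars are group means). In NK cells 1 probe set of each gene stays near its level elsewhere, the other falls to between 8.18 and 10.19, and the Gapdh difference is at 4.32 to 5.27.

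The Gapdh difference moved with this comparison, at 4.32 to 5.27 in NK cells against 2.83 to 3.84 in lymph node T cells. The 5′ Gapdh control itself read 5.04 to 5.94 in NK cells and 6.87 to 8.03 in lymph node T cells. With the Gapdh difference as a covariate, 4 members remained lower: Rps7 (-3.16), Rpl10a (-1.93), Rpl6 (-1.51) and Rps19 (-0.95). In that fit 0.918% of all probe sets were lower and 2.54% higher. The covariate itself does not overlap between the groups. NK arrays also varied in granulocyte markers, whose sum was 409 to 20850 linear units against 234 to 308 in lymph node T cells, and in erythroid markers (791 to 5785 against 182 to 587). B cell markers (1203 to 2056 against 369 to 482) and macrophage markers (950 to 2705 against 258 to 341) were also higher in every NK array, and T cell markers lower (872 to 2075 against 2868 to 3874). The part of these cells in the differences was not tested. Array weights gave 16 members lower and 4 higher, with 14.6% of all probe sets lower and 13.1% higher.

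Other genes of the translation machinery were counted from fixed lists. In NK cells against lymph node T cells, 8.68% of all probe sets were lower and 6.47% higher. Of the 19 measured non-ribosomal TOP genes (of 21 listed), 6 were lower in NK cells than in lymph node T cells and none higher, with a median of -0.86. Elongation factor Eef2 was lower by 1.37 ± 0.34 (SE; limma adjusted p = 0.011) and poly(A) binding protein Pabpc1 by 1.25 ± 0.22 (SE; limma adjusted p = 9.04e-04). Of 43 measured ribosome biogenesis genes (of 48), 19 were lower and 1 higher, with a median of -0.66; the largest falls were Rrp1 (-1.96), Fbl, which methylates ribosomal RNA (-1.73), Polr1d, a subunit of RNA polymerases I and III (-1.58), and Gnl3, nucleostemin (-1.33). Of 61 mitochondrial ribosomal proteins, 18 were lower, such as Mrps21 (-2.05), and 3 higher, such as Mrps25 (1.37). Among 27 initiation factors and regulators (of 36), 6 were lower and 1 higher, the translation inhibitor Eif4ebp1 (1.27). Fau, a ribosomal protein made as a ubiquitin-like fusion, did not pass (-0.10). Of the 39 shared ribosomal protein probe sets, 10 were lower and none higher, with a median of -0.18.

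NK cells against splenic leukocytes added a difference in amplification, since the spleens had 1 round, and the rounds and the populations cannot be told apart here. In this comparison 15 members were lower and 1 higher in NK cells, where 23.1% of all probe sets were called, 13.4% lower and 9.68% higher. The median difference was -0.39, against 0.06 over all probe sets. Rps7 again led: it read 12.74, 12.72 (B6g7), 12.83 and 12.76 (NOD) in spleen, all above its 7.03 to 7.77 in NK cells. The difference was -5.31 ± 0.32 (SE; limma adjusted p = 1.51e-09), 39.6-fold. Next came Rpl10a (-3.17 ± 0.23), Rps3a1 (-2.31 ± 0.48), Rpl6 (-2.01 ± 0.14), Rpl19 (-1.85 ± 0.35), Rps3 (-1.84 ± 0.23), Rpl8 (-1.60 ± 0.25) and Rps4x (-1.56 ± 0.24). Their limma adjusted p-values ran from 9.98e-09 to 0.00175.

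Rplp0 passed here, at 11.21, 11.35, 11.12 and 11.41 in NK cells and 12.45, 12.39, 12.37 and 12.33 in spleen, a difference of -1.11 ± 0.27 (SE; limma adjusted p = 0.00501). Rpl41, whose product is the shortest ribosomal protein, was lower (-0.93), as were Rps19 (-0.87), Rpl7a (-0.82), Rps18 (-0.64), Rps4l (-0.59) and Rps27 (-0.57). Rps4l read 4.09 to 4.40 in NK cells, near the 4.36 taken above as a rough level of absence. Its call was lost when any 1 of the 8 arrays was left out. The call of Rpl7a was lost without array 1 of the NOD NK cells (limma adjusted p = 0.0594). Rps28 was higher by 0.45 ± 0.13 (SE; limma adjusted p = 0.0194), a call lost in 5 of the 8 fits without 1 array, and its plain-suffix probe set differed by -3.28 ± 0.25 (SE; limma adjusted p = 4.10e-08). NK cells were set against both references, so this comparison and the former share the NK arrays: 10 members were lower in both, 10 of 11 in the first and 10 of 15 in the second. With the Gapdh difference as a covariate, Rps7, Rpl6 and Rps27 were called, all lower, as were 2.09% of all probe sets. Under it the direction turned for Rps3a1 (2.35), Rps4x (0.45), Rps3 (0.35), Rps18 (0.05) and Rps28 (-0.04), none of them called. The other probe set of Rpl10a read 0.28 higher in NK cells than in spleen and did not pass. Nor did the dimmer other probe sets of Rpl19 (-0.05) and Rps4x (-0.29 to 0.44). B cell markers summed to 7222 to 7974 linear units in spleens and 1203 to 2056 in NK cells. Macrophage markers summed to 652 to 984 in spleens and 950 to 2705 in NK cells, and T cell markers to 1453 to 2637 and 872 to 2075. Granulocyte markers (575 to 2899 and 409 to 20850) and erythroid markers (755 to 2040 and 791 to 5785) reached higher in NK cells but overlapped. The part of these cells in the differences was not tested. The replicate number as a block, with only these 4 groups in the fit, gave 19 lower and 9 higher, where 21.5% of all probe sets were lower and 25.1% higher.

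Non-ribosomal TOP genes were lower in NK cells than in spleen for 11 of 19, with a median of -1.12; Eef2 differed by -2.41 ± 0.36 (SE; limma adjusted p = 7.64e-05) and Eif3k, a subunit of initiation factor 3, by -2.40 ± 0.28 (SE; limma adjusted p = 6.63e-06). Of 43 ribosome biogenesis genes 20 were lower and 5 higher, among the latter Bysl, needed to make the small subunit (1.80). Of all probe sets, 13.4% were lower and 9.68% higher.

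Infiltrates against splenic leukocytes, taken as the mean over both backgrounds, gave 15 members lower and none higher. Of all probe sets, 20.3% were called, 10.6% lower and 9.78% higher. The median difference was -0.51, against 0.04 over all probe sets. This result depends on the scale between arrays. With quantile normalization, which gives every array the same distribution, 3 members were lower, 1 was higher and the median was -0.10, while 19.7% of all probe sets were called, 10.7% lower and 9% higher. The 3 were Rps7 (-2.37), Rpl10a (-1.15) and Rps27 (-0.82), and Rps19 was the higher one (0.52). The infiltrates also had 2 rounds of amplification against 1 in the spleens, and the Gapdh difference was 2.56 to 3.65 against 0.21 to 0.37. Neither can be told apart from the populations.

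Rps7 in 6 infiltrates had a lowest value of 9.32, a median of 10.17 and a highest of 10.80, all below the 12.72 to 12.83 of the 4 spleens. The difference was -2.72 ± 0.29 (SE; limma adjusted p = 3.78e-06). Rpl10a read 9.42 to 10.43 in infiltrates and 11.42 to 11.78 in spleens, a difference of -1.64 ± 0.21 (SE; limma adjusted p = 2.56e-05). Rps27, a zinc finger protein of the small subunit, was tight in both, at 6.49 to 6.64 in infiltrates and 7.30, 7.34, 7.66 and 7.37 in spleens. It differed by -0.82 ± 0.12 (SE; limma adjusted p = 7.49e-05).

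The other falls past the threshold were Rpl19 (-1.32), Rps4x (-1.03), Rpl7 (-0.93), Rpl6 (-0.87), Rplp0 (-0.82), Rps10 (-0.76), Rpl41 (-0.69), Rpl7a (-0.63), Rpsa (-0.57), Rps4l (-0.55), Rps28 (-0.51) and Rps18 (-0.43). The dimmer other probe sets of Rpl19 (-0.16), Rps4x (-0.28 to 0.36), Rpl7 (-0.07) and Rps4l (0.02) did not pass. The f-suffix probe set of Rpl10a (-0.59) and the plain-suffix one of Rps28 (-0.84) were also called lower. Rpsa, a protein of the small subunit also known as the laminin receptor precursor, read at most 9.56 in infiltrates and 9.74 to 9.87 in spleens. Rpl7, Rps10 and Rpsa were called lower here and did not pass in NK cells against spleen, where they differed by -0.39, -0.16 and -0.32, and Rps28 was called higher there. The reverse held for Rps3a1, Rps3, Rpl8 and Rps19; Rps19 differed by -0.09 ± 0.12 in infiltrates (SE; limma adjusted p = 0.666). Whether a member differed more in 1 of these comparisons than in the other was not tested, and both share the spleen arrays.

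Leaving out 1 of the 10 arrays ended the call of Rplp0 in 5 fits (limma adjusted p up to 0.0756) and those of Rpsa, Rps4l, Rpl7a and Rps18 in 7 each (0.1, 0.137, 0.139 and 0.123), and none of the other 10. For Rplp0, arrays 3 of both infiltrate groups were the lowest infiltrates, at 10.96 (B6g7) and 10.81 (NOD), against 11.56 to 12.14 in the other 4. The same arrays were lowest in Rps27l, a paralogue of Rps27 induced by p53 (6.28 and 6.04, others 6.84 to 7.53), and highest in Rps24 (12.96 and 12.78, others 11.61 to 12.38). B cell markers (7 of 8 measured) summed to 2619 to 3294 linear units in infiltrates and 7222 to 7974 in spleens, and macrophage markers (8 of 8) to 1230 to 3907 and 652 to 984. The part of this make-up in the differences was not tested.

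Of the non-ribosomal TOP genes, 5 of 19 were lower in infiltrates than in spleen and none higher, with a median of -0.55. Btf3 (-2.30 ± 0.35) and Naca (-2.05 ± 0.32), the subunits of the complex that binds nascent chains at the ribosome, differed most. Of 43 ribosome biogenesis genes 10 were lower and 5 higher, and of 61 mitochondrial ribosomal proteins 12 were lower and 6 higher. Of all probe sets, 10.6% were lower and 9.78% higher, so the 5 of 43 and 6 of 61 are near the background. The 39 shared ribosomal protein probe sets gave 19 lower and 1 higher, with a median of -0.69. The test of whether infiltrates and spleens differed by another amount in B6g7 than in NOD called no member by limma (0.0403% of all probe sets, 0.0242% higher and 0.0161% lower), and none of them and 149 of all had an unadjusted p under 0.05.

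**Figure D4:**
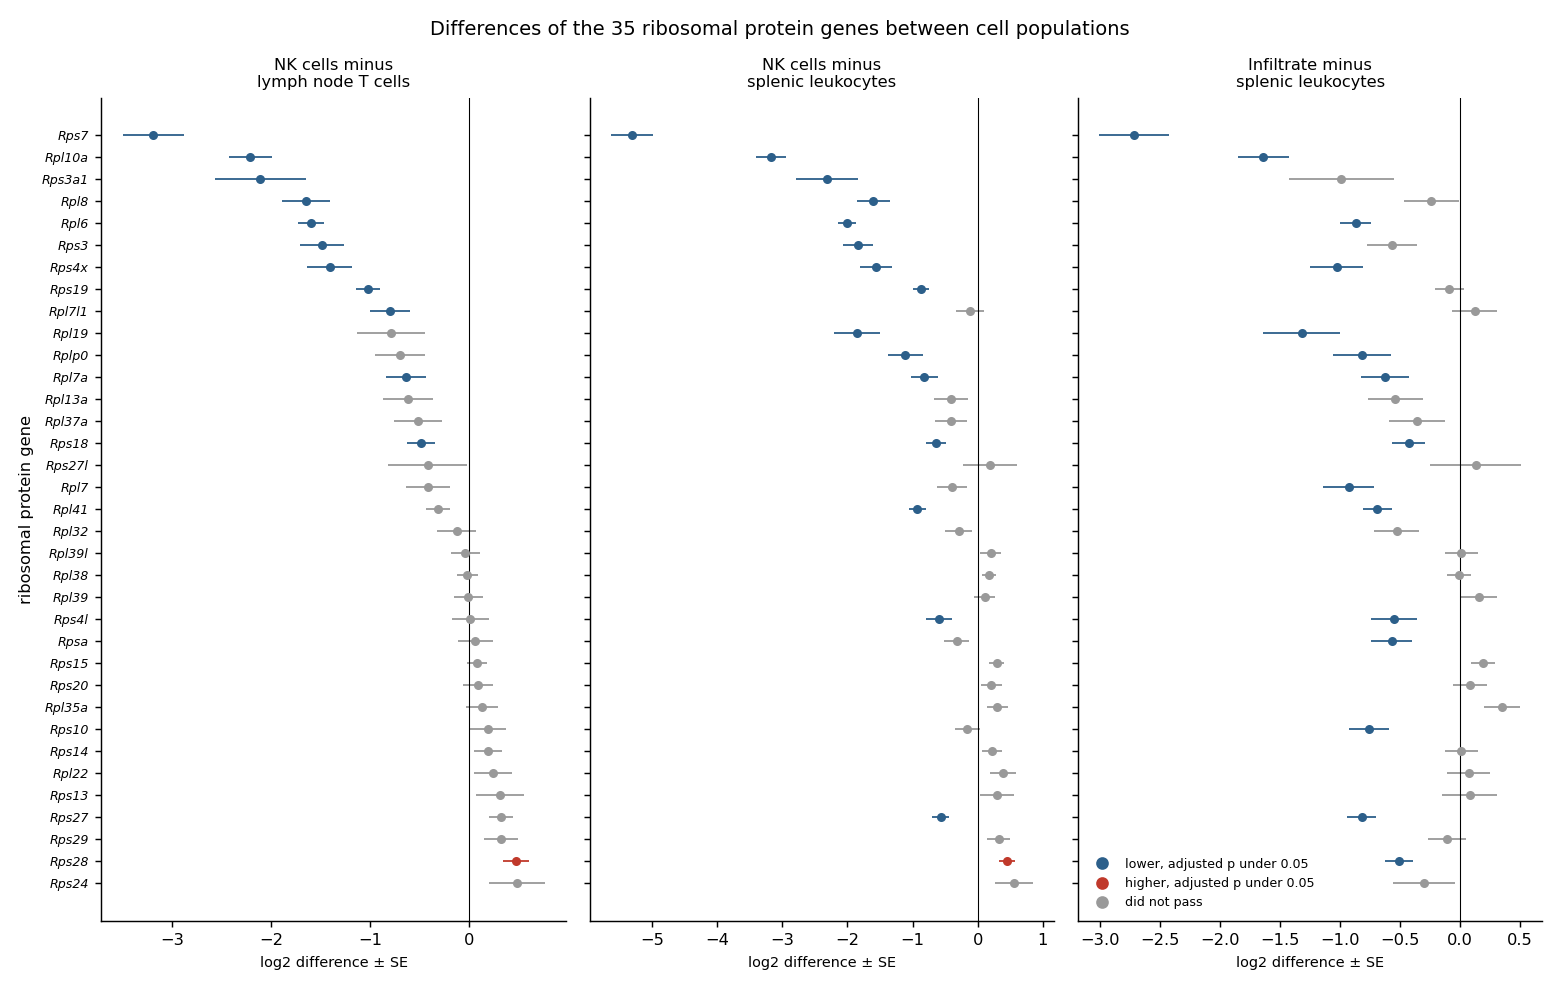
Log2 differences with SE (horizontal axes, each with its own scale) of the 35 members in 3 comparisons, in the order of the first; blue and red mark members lower and higher at a limma adjusted p under 0.05. The first 2 panels share the NK arrays and the last 2 the spleen arrays; Rps7 is lowest in each, at -3.19, -5.31 and -2.72.

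Infiltrate against the pancreatic T cells of the same background, both amplified in 2 rounds, sets the whole mixture beside 1 of its cell types. Few members passed. In NOD the median difference was -0.20, against -0.00 over all probe sets, and 8 of 35 were above 0. In B6g7 it was -0.34, against -0.03, and 2 of 35 were above 0. In NOD 1 member was lower and none higher, and in B6g7 2 were lower and none higher. Of all probe sets, 3.23% were called in NOD (0.354% lower, 2.87% higher) and 2.71% in B6g7 (0.378% lower, 2.33% higher).

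Rps28 passed on both backgrounds. It read 11.36, 11.61 and 11.67 in NOD infiltrates and 12.23, 12.13 and 12.18 in NOD T cells, a difference of -0.63 ± 0.15 (SE; limma adjusted p = 0.0273). In B6g7 it read 11.55, 11.66 and 11.84 in infiltrates and 12.40 and 12.31 in T cells, a difference of -0.67 ± 0.17 (SE; limma adjusted p = 0.0417). The infiltrates lay below the T cells on both backgrounds. Its plain-suffix probe set differed by -0.48 and -0.76 and did not pass (limma adjusted p = 0.486 and 0.322).

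Rpl38, known from the skeletal defects of mice that lack 1 copy, passed in B6g7 only, which was not tested against NOD. It read 4.85, 4.76 and 4.84 in B6g7 infiltrates and 5.37 and 5.42 in T cells, a difference of -0.58 ± 0.15 (SE; limma adjusted p = 0.0434). Its NOD difference was -0.09 ± 0.13 (SE; limma adjusted p = 0.815). These calls are near the threshold. Leaving out 1 array ended the call of Rps28 in 3 of 6 fits in NOD and 4 of 5 in B6g7, and that of Rpl38 in all 5. Fitting only the compared groups, the Gapdh covariate or leaving out the arrays with liver transcripts ended all 3. The next smallest p-values were those of Rpl6 (-0.52 ± 0.16; limma adjusted p = 0.107) and Rpl32 (-0.60) in NOD, and Rpl10a (-0.91 ± 0.29; limma adjusted p = 0.138) in B6g7. Of the ribosome biogenesis genes, Nop58 (-1.89) and Nop16 (-1.28) were lower in the NOD infiltrate, and none was called in B6g7.

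T cells of the pancreas against those of the lymph node differed in no member by limma, on either background. In NOD the percentage of all probe sets called was 0.0161% and 7 members had an unadjusted p under 0.05, as had 2263 of the 12422 probe sets. In B6g7 no probe set was called (0%), and none of the 35 and 81 of all had an unadjusted p under 0.05. With the replicate number as a block, 756 of all B6g7 probe sets had such a p, and again none of the 35. In that fit 0.00805% of all probe sets were called. The medians were -0.05 and 0.04. In NOD the smallest p-values were those of Rps3, Rps4x and Rpl8. Rps3 read 11.12, 10.45 and 11.91 in the pancreas and 12.10, 12.20 and 12.12 in the lymph node, a difference of -0.98 ± 0.26 (SE; limma adjusted p = 0.114). Rps4x differed by -0.94 ± 0.27 (SE; limma adjusted p = 0.116) and Rpl8 by -0.89 ± 0.29 (SE; limma adjusted p = 0.14).

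The widest NOD difference was that of Rps3a1, at 11.52, 8.51 and 11.81 in the pancreas and 12.21, 11.86 and 12.09 in the lymph node (-1.45 ± 0.56; limma adjusted p = 0.187). Array 2, the one with the large Gapdh difference, was the lowest. Without pancreatic array 3, which had the smallest Gapdh difference of the 3 (2.78), 5 members were called lower: Rps3a1 (-2.04), Rps3 (-1.35), Rps4x (-1.27), Rpl8 (-1.18) and Rpl7 (-0.89). In that fit 14.9% of all probe sets were called, 10.1% lower, so the 5 of 35 are near the background. In B6g7 the smallest p-values were those of Rps27 (0.21), Rplp0 (0.34) and Rps14 (0.17). The difference between backgrounds in this site effect called no member by limma (0% of all probe sets). Rps3 came nearest, at 0.86 ± 0.42 (SE; limma adjusted p = 0.998), and none of the 35 and 351 of all had an unadjusted p under 0.05.

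The aggressive and benign infiltrates, the comparison the study was built on, did not differ in any member by limma, where 0.274% of all probe sets were called (0.217% higher, 0.0564% lower). The median of B6g7 minus NOD was 0.02, against -0.02 over all probe sets, 20 of 35 were above 0, and 1 had an unadjusted p under 0.05, as had 521 of all probe sets. Differences ran from -0.33 (Rps13) to 0.49 (Rps3). Rps3 read 12.41, 12.15 and 11.85 in B6g7 infiltrates and 11.42, 11.99 and 11.53 in NOD infiltrates, which overlap (0.49 ± 0.26; limma adjusted p = 0.999). Rpl38 read 4.85, 4.76 and 4.84 in B6g7 and 5.10, 5.06 and 5.23 in NOD, without overlap, a difference of -0.31 ± 0.13 (SE; limma adjusted p = 0.999). Rpl6 differed by 0.29 ± 0.16 (SE; limma adjusted p = 0.999). The SE of these differences says what could be seen: Rps19 (0.02 ± 0.15) was measured closely, and Rps27l (-0.22 ± 0.48) was not. Rplp0 (-0.05 ± 0.31), Rpsa (0.06 ± 0.22) and Rpl22 (-0.21 ± 0.23) lay between.

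The other 4 populations also had no member called between backgrounds. With runs of the serial codes as a block, Rps10 (0.95) and Rpl37a (1.13) were called higher in B6g7 pancreatic T cells, and both also in lymph node T cells (0.92 and 1.02). In those fits 2.5% and 1.22% of all probe sets were called. The only run with T cells of both backgrounds holds array 1 of each T cell group. These calls therefore rest on 1 array per background at each site, and all of those arrays had liver transcripts. Of all probe sets, 0.0725% were called in spleen (0.0403% higher, 0.0322% lower) and 0.145% in pancreatic T cells (0.0966% and 0.0483%). The lymph node T cells had 0.129% called (0.0725% higher, 0.0564% lower) and the NK cells 0.0483% (0.0322% and 0.0161%). Unadjusted p-values under 0.05 were found by limma for 0, 3, 3 and 0 members in the same order, and for 155, 800, 864 and 156 of all probe sets. The SE and p-values here use the spread shared by all groups, and spleen and NK arrays varied less than most (array weights 1.88 to 2.20). With only the compared groups, 549 (spleen) and 416 (NK cells) of all probe sets had such a p. So had 0 and 2 members, and none was called. The medians of the 4 populations in the main fit were -0.01, 0.18, 0.05 and -0.03. In spleen every member lay between -0.23 (Rpl10a) and 0.27 (Rpl37a), and the smallest p was that of Rps27 (-0.20 ± 0.18; limma adjusted p = 1).

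Pancreatic T cells spread most, from -0.27 (Rpl22) to 1.16 (Rps3a1, where NOD array 2 is low). Rps3 read 11.85 and 12.07 in B6g7 and 11.12, 10.45 and 11.91 in NOD, a difference of 0.80 ± 0.29 (SE; limma adjusted p = 0.53). In lymph node T cells Rpl32, a dim probe set, read 4.64 and 4.80 in B6g7 and 3.73, 3.64 and 4.33 in NOD (0.82 ± 0.27; limma adjusted p = 0.479). Rps10 read 12.34 and 11.40 in B6g7, and 11.32, 11.18 and 11.38 in NOD. The B6g7 T cell arrays 1 stood above arrays 2 at both sites: Rpl37a was 10.40 and 9.33 in the lymph node and 10.34 and 9.28 in the pancreas, and Rps10 12.34 and 11.40, and 12.19 and 11.35. In NK cells the smallest p was that of Rpl8, at 9.97 and 9.98 in B6g7 and 9.47 and 9.69 in NOD (0.40 ± 0.36; limma adjusted p = 1).

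**Figure D5:**
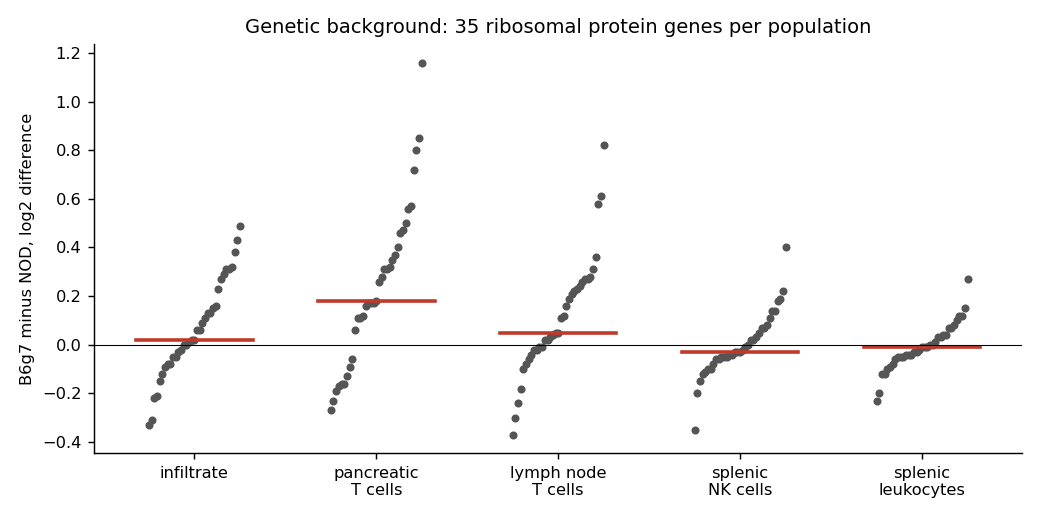
B6g7 minus NOD log2 differences (vertical axis) of the 35 members in each of 5 populations, sorted within each; the red bar is the median. None passed the threshold, and the medians are 0.02, 0.18, 0.05, -0.03 and -0.01 from left to right.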

How the data were processed

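The authors deposited 1 table of linear probe set intensity for 24 arrays. Per the submitters' processing notes, RMA (robust multi-array average) was named for 11 arrays, among them all B6g7 and no NOD infiltrates. How the other 13 were made, and any version, was not given in the sources used here. Array medians ran from 35.1 to 39.1, and log2 was taken without a pseudocount. The number of arrays limits the precision.

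After 66 controls were left out, 12422 probe sets were fitted with limma 3.58.1 in R 4.3.3 (10 group means, 14 residual degrees of freedom). Two-sided p-values were adjusted by Benjamini-Hochberg over all probe sets in each comparison, with a threshold of 0.05. The script was tested on simulated data. Genes were named from the platform annotation and RefSeq (GRCm38.p6).

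Members and lists were chosen with earlier results of these data known. Named are members that passed (at most 8 in each direction in full), the 3 smallest p-values where fewer than 3 passed, a fixed panel, extremes of level and range, and at most 4 examples of a list; Rps13, Rps10 and Rpl37a values and others outside this were chosen after their values were seen.

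Same-numbered pancreatic and lymph node NOD T cell arrays deviated together (r = 0.34, 0.36 and 0.29 over all probe sets). The same values for infiltrates of the 2 backgrounds, which cannot share mice, were 0.42, 0 and 0.54. For NK cells of the 2 backgrounds the value was 0.65. The highest value, 0.79, was that of pancreatic and lymph node T cells in B6g7. With 2 arrays per group, both numbers give the same value. Same-numbered B6g7 T cell arrays also share a labelled age (25 and 22 days). Such values alone therefore do not show a pairing. In NOD T cells, array 2 was of 24 days in the pancreas and 22 days in the lymph node. The labels do not say what a number shares, and the main fit had no term for it. Alternatives were other scalings, a filter on dim probe sets, a trended prior, array weights, only the compared groups, 1 probe set per gene, another probe set per member, a replicate block, runs of the serial codes in the descriptions as a block, and fits without 1 array. The Gapdh covariate and leaving out arrays with liver transcripts were chosen after seeing the data.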

Additional observations from a re-analysis of the deposited data

How the results depend on the processing

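The 46 called member differences were recomputed under the alternative settings, which gave 909 values: 737 kept direction and call, 155 kept direction only, and 17 turned. With the Gapdh difference as covariate, infiltrate against spleen turned for Rps4x (0.22), Rpl7 (0.35) and Rps18 (0.00, just above 0), and NK cells against spleen for Rps4x (0.45), Rps3 (0.35), Rps3a1 (2.35), Rps28 (-0.04) and Rps18 (0.05). With the dimmest probe set of each member, NK cells against lymph node T cells turned for Rpl10a (0.21) and Rps28 (-0.37), infiltrate against spleen for Rps4x (0.36), Rps28 (0.27) and Rps4l (0.02), and NK cells against spleen for Rpl10a (0.28), Rps4x (0.00) and Rps4l (0.28). With quantile normalization Rps28 in infiltrate against spleen became 0.04. The cause was not tested, other than that another probe set is read in the second group.

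Counts of called members moved as follows. NK cells against lymph node T cells (12) had 20 with array weights and 4 with the Gapdh covariate, where 27.7% and 3.45% of all probe sets were called (15.2% before). Infiltrate against spleen (15) had 4 with quantile normalization and 4 with the Gapdh covariate (19.7% and 11.7% of all probe sets, 20.3% before). NK cells against spleen (16) had 29 with array weights, 27 with only the compared groups, 28 with the replicate block and 3 with the Gapdh covariate (45.7%, 41.2%, 46.6% and 7.81% of all probe sets, 23.1% before). Infiltrate against pancreatic T cells in NOD (1) had 0 with quantile normalization, a trended prior, array weights, only the compared groups, the dimmest probe set, the replicate block, the Gapdh covariate and without liver arrays. In B6g7 (2) it had 1 with quantile normalization, the filter on dim probe sets or array weights, and 0 with the other 6 of those settings. The serial code block gave 14 (NOD) and 15 (B6g7) there, with 27.3% and 31.4% of all probe sets called (3.23% and 2.71% before), linked only through the run that holds pancreatic NOD T cell array 2. It also called Rps10 and Rpl37a higher in B6g7 in the T cells of either site (2 each, 0 before). There the backgrounds were linked only through the run that holds array 1 of each T cell group. The block could not be fitted for NK cells against lymph node T cells or infiltrate against spleen.

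Leaving out 1 array gave 10 to 14 called members in NK cells against lymph node T cells, 10 to 16 in infiltrate against spleen and 14 to 15 in NK cells against spleen. It gave 0 to 2 (NOD) and 0 to 1 (B6g7) in infiltrate against pancreatic T cells, 0 to 5 in NOD T cells between sites (5 without pancreatic array 3) and 0 to 1 between backgrounds in pancreatic T cells (Rps3, 1.18, without the same array). The other background comparisons, the B6g7 sites and both interactions stayed at 0. Where 1 array remained in a group, the spread of the other groups stood for its own. The share of all probe sets called moved too, given here for fits with at least 2 arrays left in each group. It was 12.4% to 16.5% in NK cells against lymph node T cells and 16.9% to 19.5% in infiltrate against spleen. In infiltrate against pancreatic T cells it was 1.77% to 6.82% (NOD) and 1.79% to 2.44% (B6g7). Between NOD sites it was 0% to 14.9%, and for the Rps3 call 0.958%. The replicate block changed no other count of called members by over 1.5 times.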

Other observations

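Outside the ribosomal proteins, the 5 genes whose 10 group means followed the members' mean most closely were Prkab1, a subunit of the energy sensor AMPK (Pearson r = 0.982), Ssu72 (0.979), Mdp1 (0.968), Ndufa13, a subunit of mitochondrial complex I (0.966), and Stat6, which carries interleukin 4 signals (0.964). This is a ranking over 10 groups that share arrays, scaling and amplification, and their group means ranged over 0.67 (Ndufa13) to 1.47 (Stat6).

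The 49 probe sets of the members gave 12 lower and 1 higher in NK cells against lymph node T cells, 18 lower and none higher in infiltrate against spleen, and 16 lower and 1 higher in NK cells against spleen. Of all probe sets, 8.68%, 10.6% and 13.4% were lower in the same order, and 6.47%, 9.78% and 9.68% higher. The medians of the 49 were -0.04, -0.28 and -0.16. None of the 49 was called between backgrounds.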
